A study of Mus musculus with 4 samples.

Results

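H3K79me2 was mapped by ChIP-seq in mouse DN3 thymocytes, and the inhibitor peak list held 3737 weak but wide peaks among 35018. These peaks were chosen by 2 measured values of the inhibitor list, a −log10 q under 1.301 (q above 0.05) and a width of at least 5000 bp, so the strength and width given for these peaks describe the choice and are not findings. The cells were double-negative thymocytes of strain C57BL/6, derived in culture from stem cells of the blood system over a layer of OP9-DL1, stromal cells that present a Notch ligand to the thymocytes. Both cultures received the cytokines Flt-3L, at 5 ng/mL, and IL-7, at 2 ng/mL, up to the DN3 stage. The inhibitor cells were grown with A939572, which blocks the stearoyl-CoA desaturase SCD1, and the control cells with the vehicle DMSO. Each condition had 1 ChIP library, so no value has a replicate error and no difference between conditions has a replicate check or a p-value. Peak lists carry no read numbers, depth is therefore unknown, and 95% Wilson intervals cover counting error over peaks or genes only.

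H3K79me2 is laid down by the methyltransferase DOT1L, which travels with the transcription machinery. In expressed genes the mark starts near the transcription start and thins out toward the 3′ end, so a long gene can carry a dense 5′ block and a sparse remainder. DN3 thymocytes rearrange the T cell receptor beta locus and assemble the pre-T cell receptor with the CD3 chains on their surface.

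The labelled cell type was checked against marker genes by the share of each gene body under peaks. Of 32 DN3 thymocyte markers, 25 had at least 50% of the body under inhibitor peaks and 17 under control peaks, where 26.1% and 5.47% of all coding genes did. Among 20 markers of stromal feeder cells these numbers were 3 and 2, with Thy1 counted in both lists of markers. They were 2 and 0 of 13 B cell markers, 2 and 0 of 14 myeloid markers, 4 and 3 of 12 natural killer and innate lymphoid markers, and 1 and 0 of 10 erythroid and megakaryocyte markers. Zap70, a kinase of the T cell receptor, was the DN3 marker with 0% under inhibitor peaks.

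Promoter sequences are shown for the 3 genes on the DN3 and fatty acid lists that had at least 50% of the body, and a start, under weak wide peaks. Each runs from 250 bases before the start to 50 bases from it on, 5′ to 3′ on the gene's strand. The source is RefSeq on GRCm38.p6, the assembly that mm10 names. A start of the promoter set can lie inside the gene body. The Fads3 start used is at 10041548, while the gene body begins at 10040855, so this window lies within the body. Capitals mark GGGCGG on either strand, a GC box of the kind bound by Sp and KLF factors. Cd3e encodes the CD3 epsilon chain (chr9:45009562-45009861, minus strand), Fads3 a fatty acid desaturase (chr19:10041298-10041597, plus strand) and Ppard a nuclear receptor for fatty acids (chr17:28232504-28232803, plus strand).
Cd3e: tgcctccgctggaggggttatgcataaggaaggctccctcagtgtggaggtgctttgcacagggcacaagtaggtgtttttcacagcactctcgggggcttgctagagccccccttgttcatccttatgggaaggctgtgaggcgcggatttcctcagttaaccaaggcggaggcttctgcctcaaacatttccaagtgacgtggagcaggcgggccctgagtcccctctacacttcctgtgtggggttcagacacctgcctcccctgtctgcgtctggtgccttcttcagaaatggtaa
Fads3: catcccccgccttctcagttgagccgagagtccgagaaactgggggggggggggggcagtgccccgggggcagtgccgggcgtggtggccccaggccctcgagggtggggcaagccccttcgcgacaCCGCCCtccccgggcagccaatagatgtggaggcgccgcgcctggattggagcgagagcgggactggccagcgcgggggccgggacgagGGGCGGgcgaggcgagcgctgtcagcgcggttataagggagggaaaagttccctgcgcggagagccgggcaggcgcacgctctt
Ppard: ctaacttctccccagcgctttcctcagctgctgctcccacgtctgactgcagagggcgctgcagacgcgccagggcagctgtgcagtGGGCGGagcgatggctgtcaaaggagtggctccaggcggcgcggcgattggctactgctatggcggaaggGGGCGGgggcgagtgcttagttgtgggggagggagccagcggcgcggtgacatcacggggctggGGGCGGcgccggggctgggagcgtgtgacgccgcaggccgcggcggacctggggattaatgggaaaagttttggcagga

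The Fads3 promoter held 2 GC boxes and 31 CpG dinucleotides, and the Ppard promoter 3 GC boxes and 27 CpG. The Cd3e promoter held 8 CpG and none of the motifs searched. Its GC content was 56.7%, against 73% at Fads3 and 68.3% at Ppard. The motifs were each searched on both strands, and none is contained in another. Beside GGGCGG they were the TATA box, written as TATAAA. The motif of ETS factors was searched as CCGGAAG. For Runx factors the letters were TGTGGTT. For the TCF and LEF factors of the Wnt pathway they were CTTTGAT.

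Weak wide peaks covered 43.6 Mb. Their widths ran from 5001 to 142616 bp with a median of 8373 bp, and their fold enrichment over the local background, the authors' value, from 1.48 to 2.29 with a median of 1.82. The median −log10 q was 0.464. Strong peaks of the same minimum width (q at most 0.05) numbered 5369, with a median width of 17942 bp and a median fold of 2.90. Weak peaks under 5000 bp numbered 24753, with a median fold of 1.59. Peaks next to the limits differed little in value. The weak wide peak nearest the q limit had a fold of 2.05. The strong peak nearest to it, on chromosome 7, had a fold of 2.16 and a −log10 q of 1.302. At the width limit the narrowest weak wide peak spanned 5001 bp inside Iffo2, and the widest weak peak left out spanned 4999 bp.

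Most weak wide peaks lay inside protein-coding genes and away from the gene start. Of the 3737 peaks, 3499 touched a coding gene, 93.6% (92.8 to 94.4), and 93.4% of their length lay in coding gene bodies. For strong peaks of at least 5000 bp the share of length was 91.2%, and for weak narrow peaks 77.5%. Relative to the gene it overlapped most, a weak wide peak was wholly inside the body in 3027 cases (81%), crossed the 5′ end in 249 and the 3′ end in 109, and spanned the whole gene in 23. For 91 peaks at a gene end the strand was not known, and 238 touched no coding gene.

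Gene starts and strands came from the RefSeq promoter table, which placed 17491 of 21883 coding genes, 79.9%, and no gene on chromosome 18. A gene can have several starts there, and a start can lie inside the gene body rather than at its 5′ end. Among the 3043 weak wide peaks whose genes were all placed, 412 contained a coding gene start, 13.5% (12.4 to 14.8). Strong wide peaks contained one in 74.1% (72.7 to 75.4) and weak narrow peaks in 1.53% (1.37 to 1.70). Wider peaks can hold a start more easily, and the strong ones were wider. The peaks that crossed the 5′ end had a higher median fold, 1.97, than those inside the gene, 1.81.

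Along 11080 placed genes of at least 10 kb, weak wide cover was highest near the 5′ end and fell toward the 3′ end. At the 5′ end itself 2.65% of these genes were covered by a weak wide peak. The share was 5.82% at 5% of the body length, its highest point, 4.41% at the middle and 1.33% at the 3′ end. Strong cover was 35.4% at 5% of the body, 21.0% at the middle and 8.62% at the 3′ end. Cover by all control peaks was highest at 7.5% of the body, with 23.1% of genes, and 12.3% at the middle. Weak narrow peaks had their highest cover, 4.41%, at 72.5% of the body.

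**Figure D1:**
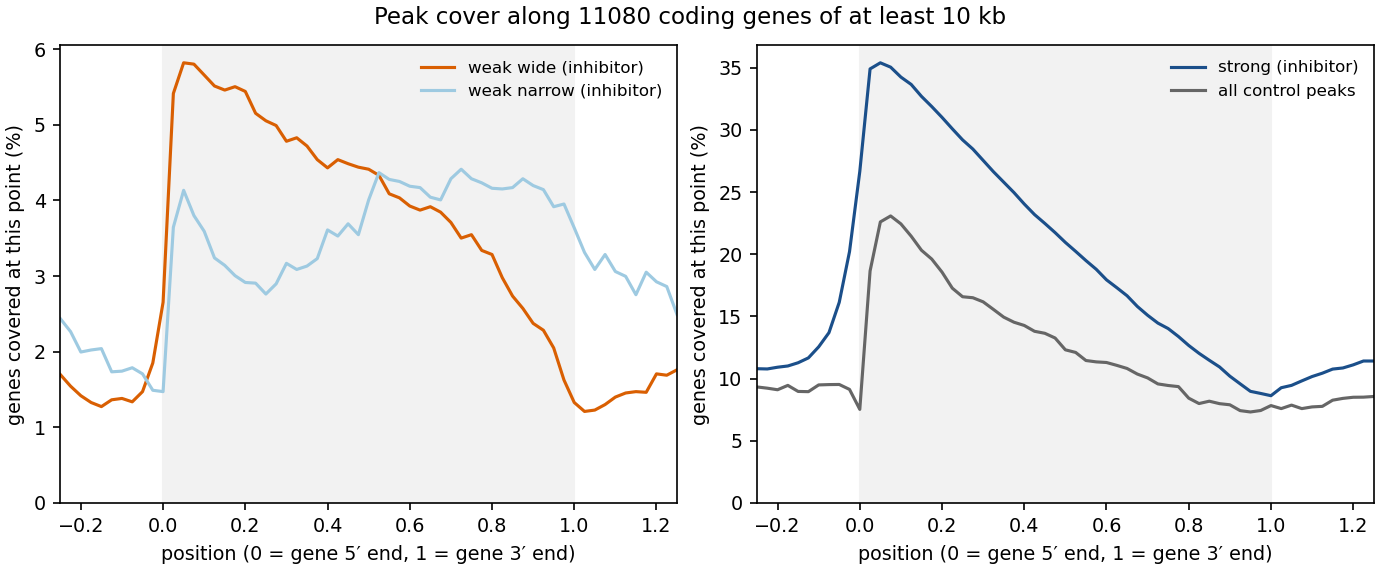
Percent of 11080 coding genes covered at each point from 25% of the gene length before the 5′ end to 25% past the 3′ end (shaded: the gene body), for weak peaks of the inhibitor list (left) and for strong inhibitor and all control peaks (right, another scale). Weak wide cover reaches 5.82% near the 5′ end and is 1.33% at the 3′ end, while weak narrow cover is highest in the 3′ part.

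Where a gene held both kinds, the strong peak usually lay on the 5′ side of the weak wide one. Of the 3737 peaks, 1378 had no strong peak in the gene they overlapped most. In placed genes that did hold one, the strong peak lay only 5′ of the weak wide peak in 1425 of 1726 cases, 82.6% (80.7 to 84.3). It lay only 3′ in 120 cases, 6.95% (5.85 to 8.25), and on both sides in 181. Among peaks wholly inside such genes the 5′ share was 82.8% (1332 of 1609). A peak at a gene end can have a strong peak on 1 side only. Weak wide peaks in the same gene share its strong peaks, while these intervals count each peak as a separate unit. The same share was not computed for weak narrow peaks. Another 395 lay with a strong peak in genes whose strand was not placed.

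The median distance to the nearest strong inhibitor peak was 24964 bp (22982 to 27149, from the order of the values), with 936 of 3735 peaks within 5 kb, 25.1% (23.7 to 26.5). Within 20 kb the number was 1721, 46.1%, and within 100 kb it was 2885, 77.2%. For weak narrow peaks the median was 36180 bp and 14.6% (14.2 to 15.1) lay within 5 kb. No weak wide peak was nearer than 1443 bp, which is also the smallest gap between any neighbouring peaks of the inhibitor list. Shorter distances do not occur in the list, for these or for any other peaks.

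Peaks with a strong peak in the same gene had a median distance of 9.26 kb, and 817 of 2121 lay within 5 kb, 38.5% (36.5 to 40.6). Peaks in genes without a strong peak had a median of 101 kb, and 45 of 1378 lay within 5 kb, 3.27% (2.45 to 4.34). The presence of a strong peak in the gene fixes part of this difference. Of these 1378 peaks 352 contained a placed gene start. The 3 most distant were a peak in Cldn34c1 on chromosome X, 6634 kb from a strong peak, and 2 peaks in Gbe1, the glycogen branching enzyme gene on chromosome 16, 5443 and 5419 kb away.

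**Figure D2:**
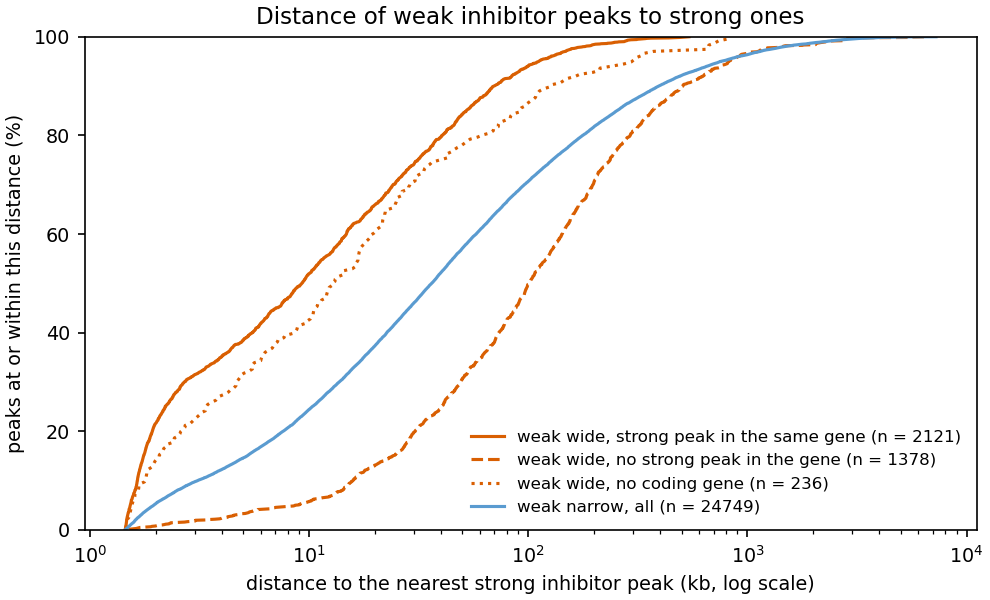
Cumulative percent of weak inhibitor peaks (y) at or within a distance in kb from the nearest strong inhibitor peak (x, log scale), for weak wide peaks split by their gene and for weak narrow peaks. Weak wide peaks with a strong peak in the gene lie nearest (median 9.26 kb), and those in genes without one lie farthest (median 101 kb).

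Control peaks lay under many weak wide peaks, but they were all weak and covered little of them. The control list held 124962 peaks with a median width of 1286 bp, and the inhibitor list 35018 with a median of 1760 bp. A list with more peaks is touched at 1 bp more easily. Of the 3737 peaks, 2537 overlapped a control peak by at least 1 bp, 67.9% (66.4 to 69.4), where 40.6% of all inhibitor peaks did. Weak narrow peaks overlapped one in 26.2% (25.6 to 26.7) and strong wide peaks in 88.5% (87.6 to 89.3). The 4683 control peaks involved had a median width of 1558 bp and a median fold of 1.65. None of them had q of at most 0.05, so 0 of 3737 weak wide peaks overlapped a strong control peak, which allows a share of up to 0.0803% by the rule of 3 counts in 3737, or 0.103% by the Wilson interval. Among all inhibitor peaks 2.21% overlapped a strong control peak, and among strong wide peaks 14.1% (13.2 to 15.0). Among weak narrow peaks 2 of 24753 did, 0.00808% (0.00222 to 0.0295), so such overlap was rare in both weak classes.

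By length, 19.8% of the weak wide cover lay under control peaks, against 15.2% for weak narrow and 38.8% for strong wide peaks. Only 302 weak wide peaks, 8.08% (7.25 to 8.999), were at least 50% under control peaks, and 1200 overlapped none. Those 1200 lay at a median of 5823 bp from the nearest control peak. Within the coding genes touched by weak wide peaks, control peaks covered 20.1% of the weak wide stretches, 42.6% of the strong stretches, 17.3% of the weak narrow stretches and 12.3% of the body with no inhibitor peak.

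The share that overlapped a control peak rose with width, which a longer peak favours by itself. It was 54.3% (50.8 to 57.8) for peaks of 5 to 6 kb, 84.0% (81.0 to 86.6) for 12 to 20 kb, and 89 of 89 for peaks of 40 kb and over. The length under control peaks went from 16.5% to 20.2% and 26.3% in the same bins. By strength the overlap was 59.2% (55.8 to 62.5) at −log10 q under 0.25, 74.3% (70.4 to 77.8) at 0.75 to 1, and 72.4% (68.1 to 76.2) at 1 and above. The median width in these bins was 6543, 11443 and 12370 bp. It was 63.1% (60.0 to 66.2) for peaks within 5 kb of a strong peak and 76.5% (73.5 to 79.2) for those over 100 kb away, with median widths of 8514 and 8805 bp.

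**Figure D3:**
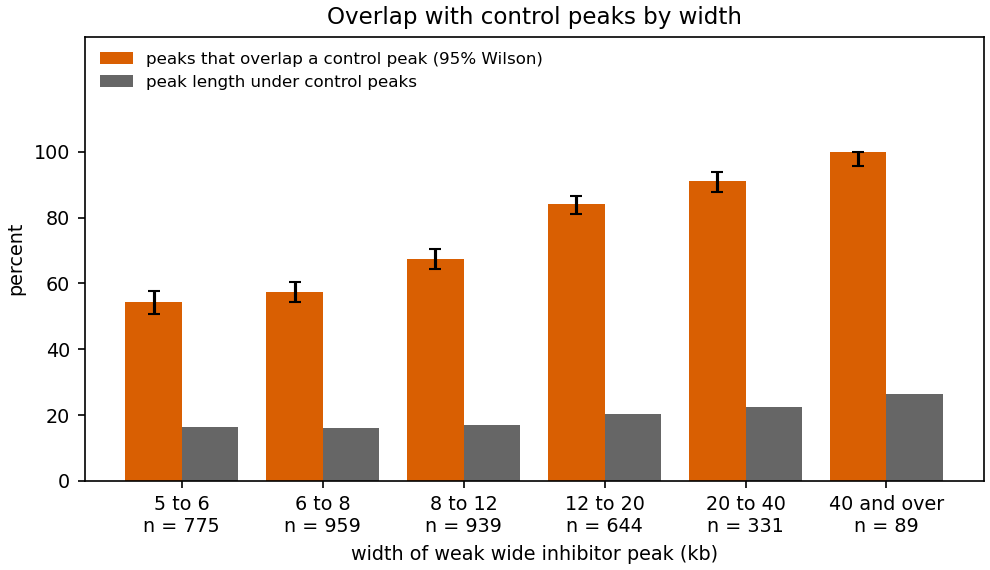
Percent of weak wide inhibitor peaks that overlap a control peak (orange, with 95% Wilson intervals) and percent of their length under control peaks (grey), by width in kb. Overlap goes from 54.3% at 5 to 6 kb to 89 of 89 peaks at 40 kb and over, while the covered length goes from 16.5% to 26.3%.

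On chromosome X 50 of 114 weak wide peaks overlapped a control peak, 43.9% (35.1 to 53.0). On the autosomes the share ran from 55% on chromosome 19 to 77.7% on chromosome 13. Chromosome Y held 2 weak wide peaks and unplaced sequence held 2.

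The 10 widest weak wide peaks lay in 10 coding genes. The widest, 143 kb (chromosome 13, 29716091 to 29858706, mm10), crossed the 5′ end of Cdkal1, which encodes a tRNA-modifying enzyme. It held 21 control peaks over 35.1% of its length, and Cdkal1 held no strong inhibitor peak. The next, 110 kb (chromosome 19, 16222177 to 16331800), lay inside Gnaq, the gene of a G protein alpha subunit. It began 2.22 kb past a strong peak that covered the 5′ part of Gnaq, and control peaks covered 40.7% of it. A peak of 94.2 kb lay inside Rere, a transcriptional corepressor gene, 35.9 kb from a strong peak and 18.4% under control peaks. The peak of 93.0 kb at Lrrc8d, a subunit of the volume-regulated anion channel, ran past the 3′ end of the gene, which overlaps another coding gene, and was 5.7% under control peaks. Across these 10 peaks the share under control peaks thus differed widely, from 4.89% at Pitpnc1, a phosphatidylinositol transfer protein gene, to 53.1% at Foxo1.

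Foxo1 encodes a forkhead factor of T cell survival and homing. Its peak (chromosome 3, 52269586 to 52349460) covered 97.7% of the body in the inhibitor list, beginning 1.249 kb past the gene's 5′ end. In the control list 51.9% of the body was covered, by weak peaks only. The nearest strong inhibitor peak was 163 kb away. Zeb2, a zinc finger repressor gene, was covered over 67.5% by a peak of 90.4 kb that lay 1158 kb from any strong peak, and over 37.0% in the control list. No strong inhibitor peak lay in either gene, and their cover rests on peaks with q above 0.05 from 1 library.
The other 4 of the 10 held a strong peak in the gene as well. Snd1, a nuclease-domain protein gene that overlaps another coding gene, was covered over 43.3% by weak wide and 11.1% by strong peaks, with 15.1% under control peaks. Tiam1, an exchange factor for the GTPase Rac, had 52.2%, 22.8% and 23.7%. Tnik, a kinase gene of the Wnt pathway, had 31.2%, 19.4% and 15.9%. Pitpnc1 had 33.3%, 63.7% and 52.2%.

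**Figure D4:**
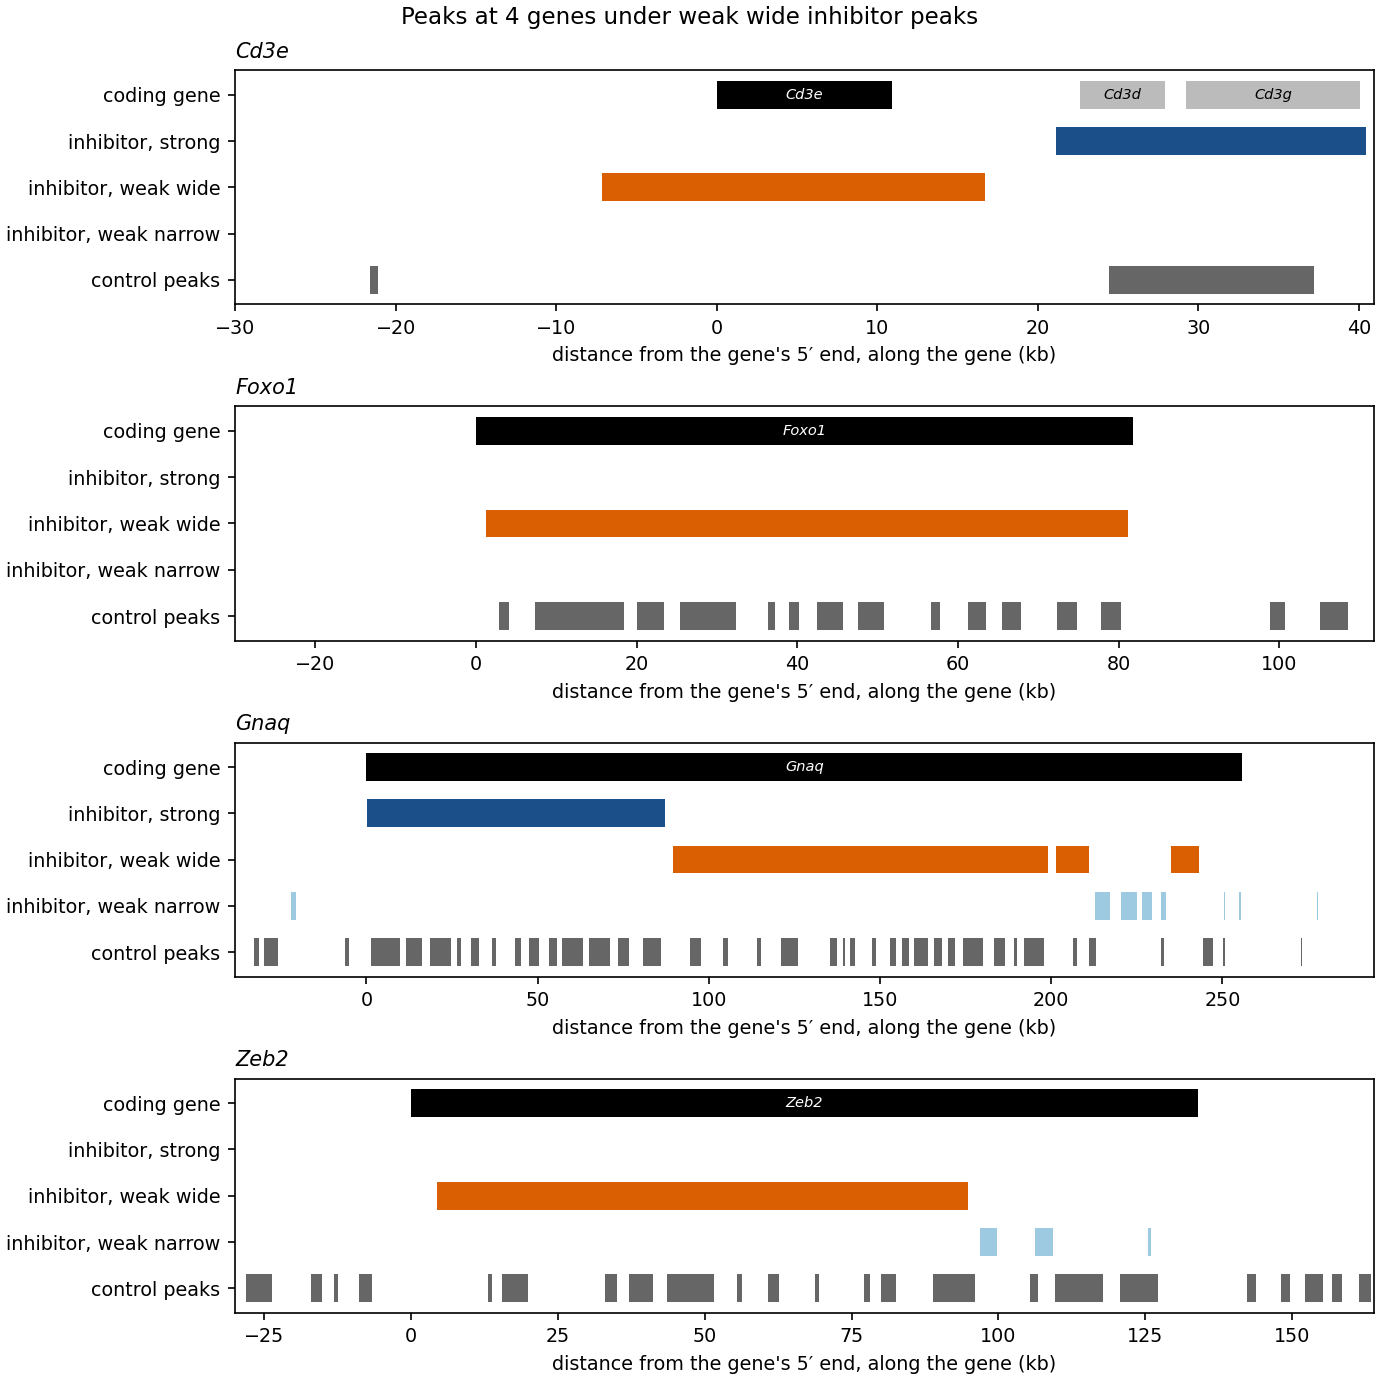
Coding genes, inhibitor peaks by class and control peaks around Cd3e, Foxo1, Gnaq and Zeb2, drawn to scale in kb from each gene's 5′ end along the gene. At Cd3e the weak wide peak ends 4.46 kb before the strong peak over Cd3d and Cd3g, at Gnaq 3 weak wide peaks follow a strong one, and Foxo1 and Zeb2 hold no strong peak.

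The 6 peaks with the highest fold enrichment, 2.25 to 2.29, were narrower, from 6.22 to 18.2 kb. They lay at Dennd4c, an activator of Rab GTPases, Gemin8 of the SMN complex, the kinase gene Rps6ka3, Iqsec1, an activator of ARF GTPases, Ap1s3 of the AP-1 adaptor, and Ino80d of the INO80 remodelling complex. Each overlapped at least 1 control peak, over 7.36% of the peak at Iqsec1 and up to 58.2% at Ino80d. Of all weak wide peaks 67.9% overlapped a control peak, so nothing is read from these 6.

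Weak wide peaks were often strung along 1 gene. They had 2206 genes as the gene overlapped most, of which 1556 held 1 such peak, 362 held 2, 146 held 3 and 142 held 4 or more. Snd1 and Exoc4, a gene of the exocyst, held 13 each. Slc9a9, a sodium and proton exchanger gene, and Pde4d, a phosphodiesterase gene, held 11 each. Of the 13 peaks in Exoc4, 12 overlapped a control peak, and the control list covered 37.9% of the gene against 37.0% in the inhibitor list. In Pde4d, 11 of 11 did, and the control list covered 34.9% against 21.8%. In Snd1 and Slc9a9 the inhibitor list covered more, 62.4% against 15.1% and 48.8% against 29.8%.

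At the level of genes, weak wide peaks touched 2365 of 21883 coding genes, 10.8%, and covered at least 50% of the body of 320, a background of 1.46%. All inhibitor peaks together did so for 26.1%, strong ones for 19.6% and control peaks for 5.47%. Of the 320 genes, 266 held no strong inhibitor peak, 83.1% (78.6 to 86.8). A start lay in a weak wide peak for 140 of the 265 whose start was placed, 52.8% (46.8 to 58.8). Genes chosen for this cover have less room for a strong peak, and their starts are covered more easily. Nothing is read from either share. Their median length was 19.9 kb, against 17.2 kb over all coding genes. Of the 320, 65 overlap another coding gene, so that a peak there cannot be given to 1 gene.

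The control list covered a median of 8.44% of the body of the 320 genes, against 2.23% over all coding genes and 25.9% over the 4285 genes at least 50% under strong inhibitor peaks. No control peak lay in 96 of the 320, 30% (25.2 to 35.2), where the background was 44.7% and the share among the 4285 genes was 17.1%. At least 50% of the body was under control peaks in 10 of the 320, 3.13% (1.71 to 5.66), against 5.47% of all coding genes and 21.6% of the 4285. By control cover the 320 genes thus stood between all coding genes and the strongly marked ones in these medians, and were not more often covered over 50% than coding genes at large. In 308 of the 320 the inhibitor list covered at least 25 points more of the body than the control list, where 30.1% of all coding genes passed. In 0 of the 320 the control list covered 25 points more, where 3.07% of all coding genes passed. Inhibitor peaks chose these genes, so nothing is read from either count.

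Among covered genes that overlap no other coding gene, the longest stretches without any control peak in the gene were in Ube2o, a ubiquitin-conjugating enzyme gene, with 30.1 kb (68.7% of the body), and in Ralgds, an exchange factor for Ral GTPases, with 27.3 kb (68.2%). Acvr2b, an activin receptor gene, had 25.4 kb (62.6%) and Os9, a lectin of endoplasmic reticulum quality control, 20.6 kb (76.7%). Cd9, a tetraspanin gene, Meaf6, a subunit of histone acetyltransferase complexes, Ehd1, a regulator of endocytic recycling, and Isoc2a followed with 11.8 to 18.3 kb. Of these 8 genes, Os9, Ehd1 and Meaf6 also held a strong inhibitor peak, over 7.02% to 12.8% of the body.
In the other direction, 6 genes that overlap no other coding gene had at least 50% of the body under weak wide peaks and under control peaks. Beside Foxo1 these were Ly6a, which encodes the stem cell antigen Sca-1 (100% and 58.4%), and Tnfrsf18, which encodes the receptor GITR (100% and 57.8%). Fam241a, Gm10509 and the olfactory receptor gene Olfr646 were the others. For Gm10509 the control list covered slightly more, 66.8% against 65.3% for all inhibitor peaks. No strong peak of either list lay in these 6 genes.

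Cd3e was the DN3 marker, 1 of 32, with at least 50% of the body under weak wide peaks. That share is 3.13% (0.554 to 15.7), beside 1.46% of all coding genes. A peak of 23.8 kb (chromosome 9, 44992979 to 45016796, mm10) with a fold of 1.85 covered the whole gene (44998735 to 45009663), and no control peak lay in it. The adjacent CD3 genes differed from it. A strong peak with a fold of 3.76 and a −log10 q of 9.93 began 4.46 kb from the weak one and covered 100% of Cd3d and of Cd3g. In the control list a strong peak with a fold of 2.22 covered 65.3% of Cd3d and 73.2% of Cd3g. Of the other DN3 markers, Notch3, a Notch receptor gene, was 22.9% under a weak wide peak that held its start, and Themis and Ets1 11.1% and 4.47%. Strong peaks covered at least 50% of 23 of the 32.

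Among 20 genes of T cell receptor signalling, 0 were at least 50% under weak wide peaks (0 to 16.1%), beside 1.46% of all coding genes. Weak wide peaks touched 11 of the 20, where 10.8% of all coding genes were touched. The share was 2.65% of Fyn, a Src family kinase gene, 19.9% of Csk, the gene of a kinase that restrains Src family kinases, and 26.7% of Ptpn6, a phosphatase gene. In Vav1, an exchange factor gene, 73.1% of the body was under strong peaks and 14.5% under a weak wide peak 2.33 kb away. In Grap2, an adaptor gene, these values were 82.5%, 9.10% and 1.60 kb. Strong peaks covered at least 50% of 14 of the 20, where they did so for 19.6% of all coding genes.

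Of 16 genes of later T cell stages, 2 were at least 50% under weak wide peaks, 12.5% (3.50 to 36.0) beside the background of 1.46%, and both are chemokine receptor genes. For Ccr7 the cover was 81.5% by weak wide peaks, with no control peak. Ccr9 was covered over 54.1% and 44.1%, all by weak peaks. The gene for the regulator Tox was 9.93% under weak wide and 75.9% under strong peaks.

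Among 24 genes that serve the oxidation and uptake of fatty acids, 2 were at least 50% under weak wide peaks, 8.33% (2.32 to 25.9) beside 1.46% of all coding genes. Weak wide peaks touched 6 of them, beside 10.8% of all coding genes. Ppard was 75.6% under weak wide peaks, the main one 44.4 kb wide and 1.62 kb from a strong peak outside the gene, and 1.71% under control peaks. Hadh and Acaa2, genes of mitochondrial beta-oxidation, were 39.3% and 34.4% under weak wide peaks, with 0.31% and 5.86% under control peaks. Pparg was 4.64% under weak wide and 37.7% under control peaks. Strong inhibitor peaks lay in 1 of the 6, Cpt1a, the carnitine palmitoyltransferase gene. Among 28 genes that serve the synthesis of fatty acids and sterols, 1 passed 50%, Fads3, with 55.7% under weak wide, 11.5% under strong and 9.92% under control peaks. Acly and Fdft1 were touched, over 12.4% and 14%.

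**Figure D5:**
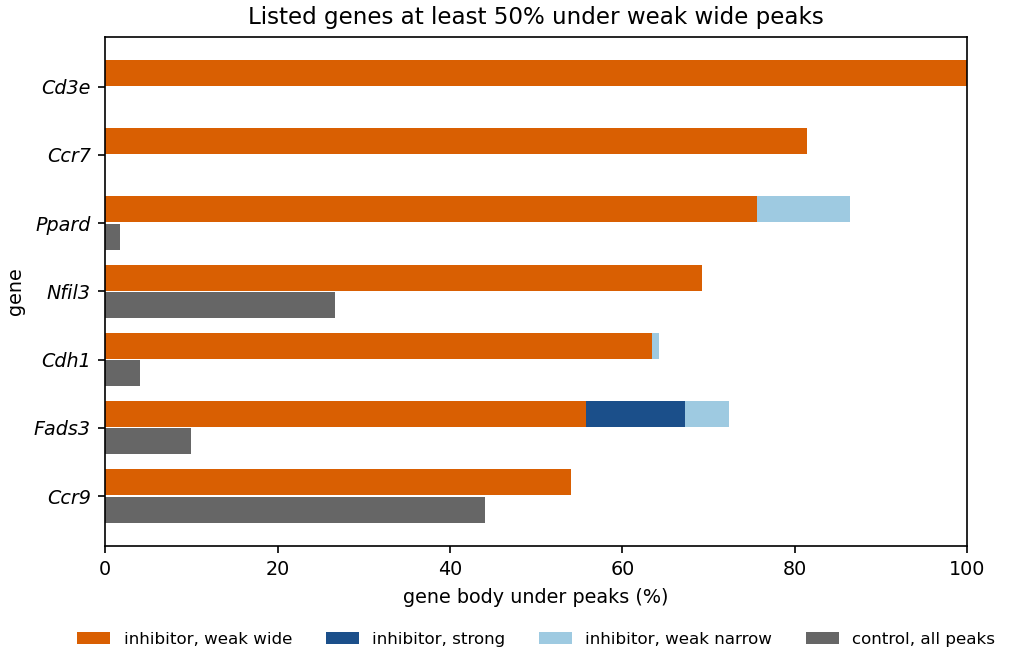
Percent of the gene body under inhibitor peaks by class (upper bar of each pair) and under control peaks (lower bar, grey) for the 7 listed genes that overlap no other coding gene and have at least 50% of the body under weak wide peaks. Fads3 is the gene with a strong peak, and Ccr9 has the highest control cover, 44.1%.

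Of 25 genes for calcium handling and NFAT, 0 passed 50% (0 to 13.3%) and 10 were touched, beside 1.46% and 10.8% of all coding genes. A longer gene can be touched more easily. Atp2b4, a plasma membrane calcium pump gene, was 41.2% under weak wide peaks that held its start and 4.10% under control peaks. Ppp3cc and Ppp3ca, catalytic subunits of calcineurin, were 30.9% and 24.8% under weak wide peaks. Nfatc2 was 26.6% and the receptor gene Itpr1 24.1%. Of 18 genes for H3K79 methylation and elongation, 0 passed (0 to 17.6%) and 5 were touched, from Ell2 with 10.3% to Mllt1 with 31.2%. Of 20 cell cycle genes, 0 passed (0 to 16.1%) and 1 was touched, the cyclin gene Ccnd2 (26.8%). These intervals include 1.46%, so nothing is read from the counts of 0.

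Among markers of other cell types, 1 of 13 B cell genes passed 50% (1.37 to 33.3%) and 1 of 12 natural killer and innate lymphoid genes (1.49 to 35.4%). Of 20 tissue genes silent in blood 1 passed (0.888 to 23.6%), and of 32 DN3 markers 1 (0.554 to 15.7%). The background over all coding genes was 1.46%. Each of these counts rests on 1 gene, so the lists are not ranked by them. Cd72 of the B cell list was 73.0% covered, with no control peak, though it overlaps another coding gene. Nfil3, a factor of innate lymphoid development, was 69.2% and 26.6% covered. Cdh1, which encodes E-cadherin and stood on the list of 20 tissue genes silent in blood, was 63.5% under weak wide and 4.07% under control peaks. The feeder, myeloid and erythroid lists had 0 genes past 50%, with upper limits of 16.1%, 21.5% and 27.8%. The part of other cells in these peaks was not tested.

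Gene families were set beside the background of 1.46%. The interval lay above it for the zinc finger genes and below it for the olfactory receptor genes. Each interval treats every gene as a separate unit and was not adjusted for the number of lists. For the other families the interval included 1.46%, so nothing is read from their counts past 50%. It was 0 to 3.70% for cytosolic and 1.32 to 10.7% for mitochondrial ribosomal protein genes. For proteasome genes it was 0.347 to 10.3%, and for complex I genes 1.13 to 13.7%. Of 100 cytosolic ribosomal protein genes 0 passed 50%, and 85 were at least 50% under strong peaks. Of 78 mitochondrial ribosomal protein genes 3 passed, Mrpl36, Mrps25 and Mrps26, each 100% covered with no control peak. Mrpl36 shares its peak of 11.3 kb, 270 kb from a strong peak, with Ndufs6, 1 of 2 complex I genes of 49 that passed. Of 51 proteasome genes 1 passed, Psmb7. Zinc finger genes named Zfp gave 17 of 397, 4.28% (2.69 to 6.75), of which 14 held no strong inhibitor peak. Of the same 397, 101 were at least 50% under strong peaks, 147 under all inhibitor peaks and 28 under control peaks. Over all coding genes these shares were 19.6%, 26.1% and 5.47%. The Zfp shares were higher in each case, so the excess was not particular to weak wide peaks. Of 1110 olfactory receptor genes 1 passed, 0.0901% (0.0159 to 0.509). In the control list 117 of these 1110 were at least 50% covered, where 5.47% of all coding genes were.

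Coding gene starts under weak wide peaks had promoters between those under strong peaks and those under no peak. The 562 starts had a median of 18 CpG dinucleotides in 300 bases, against 23 for 5674 starts under strong peaks, 16 for 396 under weak narrow peaks and 8 for 14605 under none. CCGGAAG was present in 14.4% of them, against 23.4% under strong peaks, 6.79% under none and 11.6% of all 21237 promoters. TATAAA was present in 7.3%, 6.01%, 15.5% and 12.6% in the same order, and GGGCGG in 58.7%, 64%, 38.7% and 46.2%. Starts under weak narrow peaks lay in between as well, with CCGGAAG in 14.6%, TATAAA in 9.34% and GGGCGG in 50.5%. TGTGGTT was present in 4.27% and CTTTGAT in 2.85%, against 4.71% and 3.22% of all promoters. These shares describe letters in the window, not bound sites. Of the 562 starts, 43 lay in a control peak, 7.65% (5.73 to 10.2), beside 8.04% (7.68 to 8.41) of all starts. The share was 17.9% (16.9 to 18.9) of starts under strong peaks, 5.81% (3.90 to 8.56) under weak narrow peaks and 4.28% (3.96 to 4.62) under none.

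Of 1005 miRNA hairpins in the set of sequences used, 28 overlapped weak wide peaks by at least 1 bp, where 10.8% of coding genes did. A longer gene can be touched more easily, so nothing is read from the number of miRNAs. By the RefSeq gene annotation, 36 miRNA genes lay under such peaks. A set of 6 lay under 1 peak on chromosome X (52741368 to 52747842, 6475 bp, fold 2.01) that touched no coding gene and no control peak and was 163 kb from a strong peak. This is the Mir106a-363 cluster, a relative of the Mir17-92 cluster, and it was picked for display after its values were seen. Mature sequences from RefSeq (GRCm38.p6) show how its members fall into seed groups, with the seed (bases 2 to 8) in capitals.
mmu-miR-106a-5p: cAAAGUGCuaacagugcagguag
mmu-miR-20b-5p: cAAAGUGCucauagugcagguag
mmu-miR-18b-5p: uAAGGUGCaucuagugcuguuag
mmu-miR-19b-3p: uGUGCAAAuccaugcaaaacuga
mmu-miR-92a-3p: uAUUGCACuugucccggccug
mmu-miR-363-3p: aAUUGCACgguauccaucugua

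The miRNAs miR-106a and miR-20b share a seed, as do miR-92a and miR-363, while miR-18b and miR-19b each have their own. The nearest control peak lay 5.60 kb from the peak over the cluster.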

How the data were processed

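H3K79me2 ChIP-seq libraries of 1 control and 1 inhibitor culture gave 2 broad peak lists, with 1 deposited list per library. The submitters' processing notes list BWA, MACS2 2.1.0 and mm10 but give them no roles. Caller options and any use of the inputs are not given by any source used here. Per deposited peak, a line holds the authors' fold enrichment (a ratio), −log10 p, −log10 q and a score, namely 10 times −log10 q without its decimals. In the broad peak format these columns are averages along the peak. No −log10 p lay under 1.00 in either deposited list. The 2 inputs are not analysed here.

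Intervals were intersected with numpy 2.4.6, pandas 2.3.3 and scipy 1.17.1, under Python 3.11.15, with gene bodies of RefSeq GRCm38.p6, the assembly of mm10, on chromosomes 1 to 19, X and Y. Peaks were called overlapping from 1 bp on. Functions were tested on simulated intervals. All 272 entries of the 14 gene lists were matched. Gene lists and the weak wide peaks were chosen with earlier results of these data known. Named genes were those under the 10 widest and 6 highest-fold peaks, up to 8 longest stretches each with no or at least 50% control cover, and listed genes at least 50% covered. Touched list genes, strung genes and miRNAs were added after their values were seen. Some genes that these rules name are not reported here. Alternatives are given in the closing section.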

Additional observations from a re-analysis of the deposited data

How the results depend on the processing

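Joining weak peaks within 1 kb could change none of the 8 results, since no 2 inhibitor peaks lie that near. Of the 26 values under the other settings, 8 stayed within the 95% interval of the main value (for counts, within 1.5 times) and 18 moved. Intervals for shares of length treat each peak as 1 unit. With peaks of at least 10000 bp only, 1440 peaks remained, of which 82.9% overlapped a control peak and 19.9% contained a gene start. Their median distance to a strong peak was 27773 bp, 21.5% of their length lay under control peaks and 95.7% in coding genes, and 182 genes were at least 50% covered. With −log10 q under 1, 9.91% contained a start and 197 genes were at least 50% covered.

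The share overlapping a control peak was 8.08% when at least 50% of the peak had to be covered. It was 0% for control peaks with q of at most 0.05, and so was the length under them. Within 20 kb of a strong peak lay 46.1%. With strong peaks at −log10 q of at least 5, 11.9% lay within 5 kb and the median distance was 127709 bp. Without overlapping genes, 75.4% of the length lay in coding genes. With 80% of the body required 82 genes were covered, and with any base 2365.

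No paired analysis was possible because each condition had 1 ChIP library. Peak calls depend on depth, which is unknown here, so a missing control peak is not an absent mark.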

Other observations

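Outside coding genes lay 238 weak wide peaks, and 96 of them touched a long non-coding RNA gene. Their median distance to a coding gene was 18295 bp, with 39 within 5 kb of one, and 145 overlapped a control peak. The widest spanned 35.9 kb (chromosome 16, 93123500 to 93159439, mm10), 127 kb from a strong peak and 12.4% under control peaks. The next spanned 33.5 kb (chromosome 10, 21224836 to 21258338), 1.48 kb from a strong peak and 25.8% under control peaks. Of 12727 long non-coding RNA genes, 197 were at least 50% under weak wide peaks, beside 320 of 21883 coding genes. These shares are close, so nothing is read from the count.

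Gnaq holds strong, weak wide and weak narrow peaks in 1 gene. A strong peak with a fold of 2.62 covered the stretch from 0.188 to 87.3 kb past the 5′ end, and 3 weak wide peaks followed with folds of 2.11, 2.04 and 1.91. The last weak wide peak began 235 kb past the 5′ end of this gene of 256 kb. Just before it lay weak narrow peaks with folds of 1.725, 2.088, 2.069 and 1.948, so fold did not fall steadily along the gene.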
